A study of Mus musculus with 96 samples.

Results

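The 4 microRNA hairpins, mir-137, mir-138-1, mir-138-2 and mir-153, were measured in the striatum of mice that differ in the length of the CAG repeat of Htt, the gene expanded in Huntington's disease. They were taken by name as microRNAs studied at synapses, and are 4 of the 1187 hairpins in the count table (miRBase MI0000163, MI0000722, MI0000164 and MI0000175). The rule for taking them uses names and no measured value. The table comes from small RNA sequencing of 96 libraries, 1 per mouse, all C57BL/6. The mice were heterozygous knock-ins (Het) of the Q20, Q50, Q92 or Q140 line, or wild-type (WT) animals, each at 6 and at 10 months, with 4 males and 4 females per genotype and age. Each knock-in kept 1 normal mouse Htt allele beside an allele that carries human HTT exon 1, in every cell that expresses Htt. Wild-type mice were housed with the Q20 or with the Q50 line and form a group for each. The Q92 and Q140 groups have no wild-type group of their own here, so line and repeat length cannot be told apart in them. The 24 Q20 and wild-type mice of an age are called controls. Samples of the 2 ages are different animals.

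A microRNA hairpin is cut in the cell into a short duplex, and 1 or both of its arms, named 5p and 3p, are loaded into Argonaute. The loaded strand pairs with messenger RNAs mainly through its seed, bases 2 to 8, and lowers their stability or translation. miR-137 is enriched in neurons, and the human MIR137 locus is associated with schizophrenia. miR-138 restricts the size of dendritic spines in rat hippocampal neurons, where it targets the depalmitoylating enzyme APT1 (Lypla1). miR-153 targets synaptic proteins, among them SNAP-25 and, in human cells, alpha-synuclein. These roles are background and were not measured here.

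The mature sequences are given 5′ to 3′, with the seed in capitals, because they show which hairpins can yield the same molecule. They were taken from RefSeq (GRCm38.p6), in which all 4 hairpins were found.
mmu-miR-137-3p: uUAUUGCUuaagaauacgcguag
mmu-miR-137-5p: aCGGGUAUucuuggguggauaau
mmu-miR-138-5p: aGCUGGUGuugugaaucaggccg
mmu-miR-138-1-3p: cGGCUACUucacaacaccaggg
mmu-miR-138-2-3p: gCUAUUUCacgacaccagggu
mmu-miR-153-3p: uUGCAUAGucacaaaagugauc
mmu-miR-153-5p: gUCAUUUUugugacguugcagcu

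The seeds of the 7 distinct arms differ from one another, and none of the 1679 mature microRNAs in the RefSeq table outside these hairpins has any of them. The miR-138-5p arm is the same molecule whether it is cut from mir-138-1 or from mir-138-2. Both hairpins of this pair are printed with their longest common run, 24 bases that hold the whole 5p arm, in capitals.
mir-138-1 hairpin: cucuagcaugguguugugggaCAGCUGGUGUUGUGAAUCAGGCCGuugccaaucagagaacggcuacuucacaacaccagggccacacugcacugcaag
mir-138-2 hairpin: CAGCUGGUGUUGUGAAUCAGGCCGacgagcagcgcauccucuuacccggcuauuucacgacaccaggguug

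Outside this run the hairpins differ, and their 3p arms, overlaid over 20 bases without gaps, have 2 mismatches. A read confined to the 5p arm therefore cannot be placed on 1 hairpin, whereas a read of a 3p arm can. mir-138-1 had values that were not whole in 96 libraries and mir-138-2 in 95 (tolerance 0.001), while mir-137 and mir-153 were whole in every library. How reads were divided is not given in the sources used here, so the values of mir-138-1 and mir-138-2 are uncertain as separate quantities, and their sum is given beside them. On the plus strand of GRCm38, mir-137 lies at chr3:118433857-118433929 in an exon of the noncoding transcript Gm26871. mir-138-2 lies at chr8:94324311-94324381 in an exon of the lincRNA C78859, and mir-138-1 at chr9:122682876-122682974 in an exon of the transcribed pseudogene Gm47135. mir-153 lies at chr12:117250817-117250885 in an intron of Ptprn2, which encodes a protein of dense-core vesicles, and also in an intron of Gm5441 on the other strand. All were counted as hairpins, so the arms were not measured apart.

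The hairpins differ widely in level. Per length, in the deposited FPKM, mir-138-2 averaged 272708 ± 72024 (SD, n = 96) and ranked 10 of 1187. It took 1.94% of all counts. mir-153 averaged 21474 ± 5546 FPKM (rank 65), mir-138-1 16993 ± 3730.5 (rank 72) and mir-137 5410.2 ± 1226 (rank 134). By share of counts the order of mir-138-1 and mir-153 was reversed, with 0.168% and 0.148%, and mir-137 took 0.0395%. mir-138-2 was thus by far the most abundant of the 4 and mir-137 the least. Totals per library ran from 3948560 to 12530911 counts, with a median of 6638753, and the smallest count of any member in any library was 1219. All 4 passed the filter on low counts, which kept 474 hairpins for testing. Levels are given as CPM, the count scaled to library size after TMM, a correction for composition, and are compared only within a hairpin.

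Some libraries stood apart, and several of them held extreme values of these hairpins. Each library's connectivity, its summed likeness to the other libraries of its age, was turned into a Z score, and 8 libraries had a Z below -5, 4 at each age. The 6-month Q140 male replicate 1 had a Z of -9.30, the highest mir-138-2 of its age (29038 CPM) and the lowest mir-153 (319 CPM). The 6-month male replicate 3 among the Q50 wild-type littermates had a Z of -8.17, 28678 CPM of mir-138-2 and 427 CPM of mir-153, and so stood apart in the same directions. At 10 months the Q92 female replicate 1 (Z of -11.5) and the Q20 female replicate 1 (Z of -5.39) had the lowest mir-138-2 of that age, 11112 and 10501 CPM. The study removed samples below this Z from its own analysis, whereas the main tests here keep all libraries. The part of these libraries in a result is shown by leaving them out. The sample descriptions also carry an L number, of unstated meaning: L 6 holds 9 libraries, all at 6 months, L 3 holds 2 at 6 and 9 at 10 months, L 4 10 and 27, and L 5 27 and 12. The files name hairpins by identifier only, so microRNA markers of striatal and other cells were not checked. In such bulk tissue fewer cells of a type and less RNA per cell cannot be told apart.

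With all libraries kept, none of the 4 hairpins was called by abundance against CAG length, at either age or in both ages combined. The share of the 474 hairpins called was 7.81% at 6 months, 15.6% at 10 months and 21.7% combined. A hairpin was called when its Benjamini-Hochberg adjusted p in edgeR's quasi-likelihood test was below 0.05. None was called in Q140 against the controls either, with a background of 7.81% at 6 months, 17.5% at 10 months and 24.7% combined. The median log2 difference over all 474 hairpins in Q140 was 0.02 at 6 and -0.02 at 10 months. At an unadjusted p below 0.05 the slope of mir-138-1 at 6 months and combined and the Q140 difference of mir-153 at 10 months passed. Over all 474 hairpins 101, 150 and 139 passed that threshold in these 3 comparisons, so no direction is read from it.

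**Figure D1:**
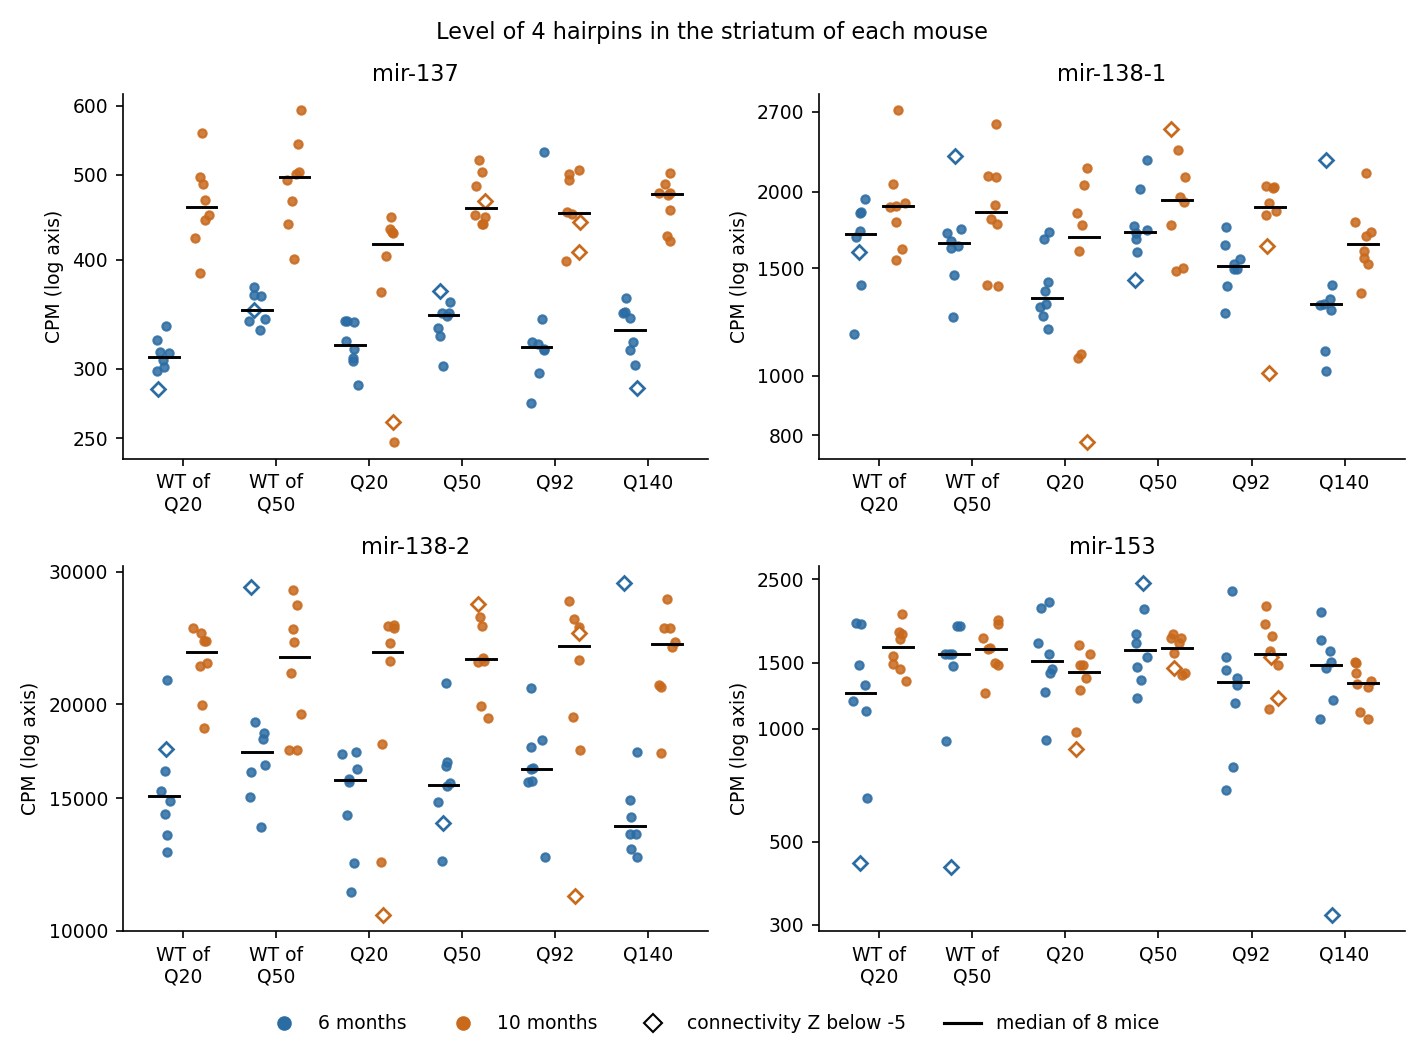
CPM of each hairpin in each mouse (log axis) by genotype, with 6 months in blue, 10 months in orange, the median of 8 mice as a bar and libraries with a connectivity Z below -5 as open diamonds. mir-137 is higher at 10 months in every genotype group's median, and the genotypes overlap within each age for all 4 hairpins.

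The medians of mir-137 differed little between genotypes, by 1.13-fold at 6 and 1.19-fold at 10 months from the lowest to the highest. At 6 months the medians of mir-137 in order were 309.8 in Q20 wild-type littermates, 318 in Q92, 319 in Q20, 332 in Q140, 346 in Q50 and 350.1 in Q50 wild-type littermates CPM. At 10 months they were 417 in Q20, 452 in Q92, 458 in Q50, 459 in Q20 wild-type littermates, 475 in Q140 and 497 in Q50 wild-type littermates CPM. Neighbours in either order overlapped in their ranges over 8 mice. In Q140 the lowest, median and highest values were 285, 332 and 362 CPM at 6 months, against 284, 328 and 372 in the 24 controls. The 10-month values ran over 419.7, 475 and 502 CPM in Q140 and over 247, 446 and 593 in the controls. Every Q140 value lay within the control range at both ages. The log2 difference of Q140 from controls was 0.00 ± 0.07 (SE, 95% interval -0.13 to 0.14) at 6 months and 0.06 ± 0.09 (-0.11 to 0.24) at 10 months (edgeR adjusted p of 0.973 and 0.682). These intervals leave room for differences of up to 0.14 and 0.24 in log2. With the 8 Q20 mice alone as controls the 10-month difference was 0.30 (edgeR adjusted p = 0.0264, 15.2% of hairpins called), past the threshold, and with the wild-type mice alone it was -0.05 (adjusted p = 0.668).

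mir-138-1 had its lowest median in Q140 at both ages. At 6 months the medians of mir-138-1 in order were 1308 in Q140, 1342 in Q20, 1510.2 in Q92, 1647 in Q50 wild-type littermates, 1705 in Q20 wild-type littermates and 1720.4 in Q50 CPM. At 10 months they were 1644 in Q140, 1683 in Q20, 1854 in Q50 wild-type littermates, 1887 in Q92, 1893 in Q20 wild-type littermates and 1939.7 in Q50 CPM. Neighbours in either order overlapped in their ranges over 8 mice. The 8 Q140 values at 6 months had a lowest, median and highest of 1017, 1308 and 2249.9 CPM, and the controls 1172, 1624 and 2286. Of the 8 Q140 mice, 7 were below the control median and 2 below every control. The highest was male replicate 1, the library that stood apart, and the next was 1406 CPM. At 10 months Q140 had 1364, 1644 and 2141 CPM and the controls 779, 1824 and 2717, with 7 of 8 again below the control median and none outside the control range. The log2 difference was -0.20 ± 0.10 (SE, 95% interval -0.40 to 0.00, edgeR adjusted p = 0.225) at 6 months. At 10 months it was -0.10 ± 0.13 (-0.37 to 0.17, adjusted p = 0.682). The slope was -0.15 ± 0.08 and -0.08 ± 0.10 log2 per 100 repeats at 6 and 10 months, with an unadjusted p of 0.0485 and 0.418 in edgeR.

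Whether mir-138-1 was called at 6 months turned on that library. Without it, Q140 differed from controls by -0.31 (edgeR adjusted p = 0.0136), in a fit that called 15.4% of hairpins, and the slope was -0.21 (adjusted p = 0.0332, 14.6% called). Without all 8 libraries of low connectivity the 6-month difference was -0.30 (adjusted p = 0.0109, 15.6% called). Combined over both ages it was -0.21 (adjusted p = 0.0106, 29.3% called), against -0.15 (adjusted p = 0.163) with all libraries. The choice of controls also decided it: against the wild-type mice alone the combined difference was -0.24 (adjusted p = 0.00977, 25.5% called; combined slope -0.18, 22.6% called), and against the Q20 mice alone 0.04 (adjusted p = 0.851). Within L numbers that hold Q140 mice and controls, the 6-month difference was negative in each, from -0.48 in L 6 (3 Q140 mice and 3 controls) to -0.05 in L 5 (3 and 16). L 3 and L 4 held 1 Q140 mouse each, against 1 and 4 controls, with differences of -0.30 and -0.29.

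mir-138-2, the abundant hairpin of the pair, had its lowest median in Q140 at 6 months and its highest there at 10 months, and neither difference was called. At 6 months the medians of mir-138-2 in order were 13792 in Q140, 15104 in Q20 wild-type littermates, 15641 in Q50, 15856 in Q20, 16429 in Q92 and 17304 in Q50 wild-type littermates CPM. At 10 months they were 22958 in Q50, 23111 in Q50 wild-type littermates, 23469 in Q20 wild-type littermates, 23479 in Q20, 23917 in Q92 and 24043 in Q140 CPM. Neighbours in either order overlapped in their ranges over 8 mice. Q140 mice had a lowest, median and highest of 12511, 13792 and 29038 CPM at 6 months and the controls 11265, 16103 and 28678. The 10-month values ran over 17247, 24043 and 27577 CPM in Q140 and over 10501, 23479 and 28392 in the controls. The groups overlapped almost fully, with 1 Q140 mouse, male replicate 1 at 6 months, above every control. The log2 difference was -0.03 ± 0.12 (SE, 95% interval -0.27 to 0.20) at 6 months and 0.08 ± 0.12 (-0.17 to 0.33) at 10 months (edgeR adjusted p of 0.905 and 0.711). Without Q140 male replicate 1 the 6-month difference was -0.20 (adjusted p = 0.188). With the counts of both hairpins summed, which removes the question of how 5p reads were divided, it was -0.06 ± 0.12 and 0.08 ± 0.12.

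mir-153 had the widest spread at 6 months and a lower median in Q140 at 10 months. At 6 months the medians of mir-153 in order were 1244 in Q20 wild-type littermates, 1332 in Q92, 1479.9 in Q140, 1510.0 in Q20, 1582 in Q50 wild-type littermates and 1619 in Q50 CPM. At 10 months they were 1326 in Q140, 1418 in Q20, 1581 in Q92, 1635 in Q50 wild-type littermates, 1645 in Q50 and 1648 in Q20 wild-type littermates CPM. Neighbours in either order overlapped in their ranges over 8 mice. At 10 months Q140 mice had a lowest, median and highest of 1059.8, 1326 and 1506 CPM, against 884, 1529 and 2020.2 in the controls. All 8 Q140 values were below the control median and all lay within the control range. The log2 difference was -0.23 ± 0.10 (SE, 95% interval -0.43 to -0.02), with an unadjusted p of 0.0308 and an adjusted p of 0.118 in edgeR. Leaving out the Q20 female replicate 1 brought it to -0.25 (edgeR adjusted p = 0.047, 19.6% of hairpins called), and wild-type mice alone as controls to -0.32 (adjusted p = 0.00716, 20.9% called). With all 8 libraries of low connectivity left out, that Q20 mouse among them, the difference did not pass. The 10-month slope was -0.14 ± 0.08 log2 per 100 repeats (adjusted p = 0.221), and -0.20 with wild-type mice alone as controls, where it passed with 18.8% of hairpins called. Against the Q20 mice alone the Q140 difference was -0.03 (adjusted p = 0.914). Within L 4, which held 7 of the 8 Q140 mice and 13 controls, the Q140 difference was -0.21. The Q140 mouse of L 5 lay 0.14 above the mean of its 5 controls, the opposite direction.

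At 6 months mir-153 ranged from 319 to 2046 CPM in Q140 and from 427 to 2179.7 in the controls. The difference was -0.05 ± 0.23 (95% interval -0.51 to 0.41, edgeR adjusted p = 0.924), so neither a fall to -0.51 nor a rise to 0.41 in log2 is outside the interval. The 8 lowest 6-month libraries, 319 to 931 CPM, all carried L number 5 and came from 5 genotype groups. L 6 had the highest median of its age, 2046 CPM, against 1360.5 in L 5 and 1444 in L 4. The part of the L number in these levels was not tested.

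**Figure D2:**
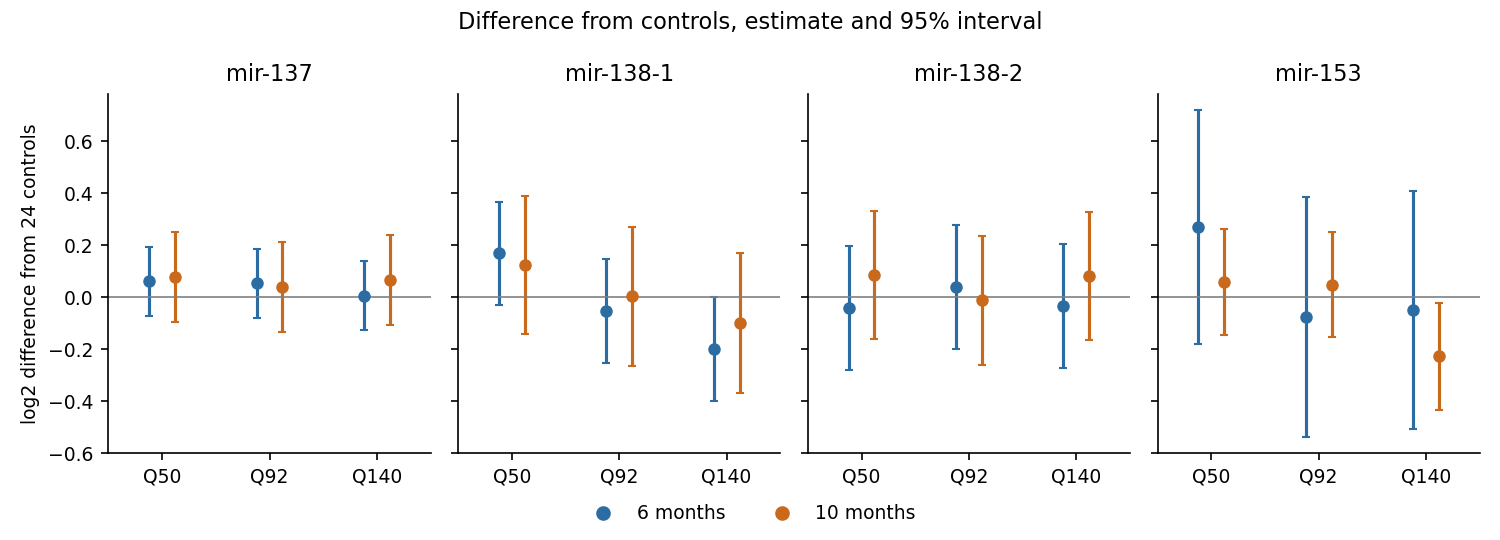
Log2 difference of Q50, Q92 and Q140 from the 24 controls of the same age, with 95% intervals derived from the edgeR test, for each hairpin. The interval of mir-153 in Q140 at 10 months lies wholly below 0, that of mir-138-1 at 6 months reaches 0, and the 6-month intervals of mir-153 are the widest.

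The shorter expanded repeats gave no call either. In Q92 against controls the 8 log2 differences (4 hairpins at 2 ages) ran from -0.08 to 0.05, with a smallest edgeR adjusted p of 0.912, where 0% of hairpins were called at either age by edgeR. DESeq2 called 0 at 6 and 12 at 10 months, limma 0 and 1. At an unadjusted p below 0.05, 16 of 474 hairpins passed at 6 months and 52 at 10 months in edgeR, and none was a member. In Q50 they ran from -0.04 to 0.27 (smallest adjusted p of 0.556), with 0% of hairpins called at 6 months (39 at an unadjusted p below 0.05 in edgeR, 0 by DESeq2 and limma) and 0.211% at 10 months. The largest was mir-153 in Q50 at 6 months, with 1209, 1619 and 2451 CPM as its lowest, median and highest values. Q140 against Q92 gave -0.28 to 0.09 (smallest adjusted p of 0.21), where 2.32% and 4.85% were called at 6 and 10 months. In both ages combined mir-138-1 differed by -0.12 ± 0.10 (adjusted p = 0.484, 9.28% called). Without the libraries of low connectivity it differed by -0.23 (edgeR adjusted p = 0.0441, 15.8% called).

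Q20 mice, which serve as controls, were compared with their own wild-type littermates to show how far the controls differ among themselves. No hairpin of the table was called at 6 or at 10 months by edgeR (0% at each), while 25 and 59 had an unadjusted p below 0.05, DESeq2 called 0 and 1 and limma 0 and 0, and 1.48% were called combined. At 10 months mir-137 had a lowest, median and highest of 247, 417 and 448 CPM in Q20 and 387, 459 and 558 in the littermates. Male replicate 3 and female replicate 1 of Q20, at 247 and 261 CPM, and male replicate 4, at 367 CPM, lay below all littermates. The difference was -0.30 ± 0.09 in log2 (edgeR quasi-likelihood p of 0.00182, adjusted p = 0.244). Male replicate 3 and female replicate 1 also had the lowest mir-138-2 (12345 and 10501 CPM) and mir-153 (980.1 and 884 CPM) of the 8. mir-138-1 differed by -0.23 ± 0.12 at 6 months and -0.32 ± 0.16 at 10 months, and combined by -0.28 (adjusted p = 0.163). mir-153 differed by -0.30 ± 0.12 at 10 months (edgeR quasi-likelihood p of 0.0131, adjusted p = 0.302) and by 0.34 ± 0.28 at 6 months (adjusted p = 0.781). Its 10-month difference between these control groups was thus no smaller than that of Q140 from all controls (-0.23). mir-138-2 differed by -0.06 ± 0.14 and -0.16 ± 0.15 at 6 and 10 months. None of the 4 passed.

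Age was the comparison in which members were called. In the 48 controls mir-137 was higher at 10 than at 6 months by 0.44 ± 0.05 in log2 (1.35-fold, 95% interval 1.25 to 1.46, edgeR adjusted p = 9.86e-09). mir-138-2 was higher by 0.43 ± 0.09 (1.35-fold, 1.2 to 1.52, adjusted p = 5.24e-05). So 2 of 4 members were called, both higher, against a background of 44.1% of hairpins called, 23.2% higher and 20.9% lower. With 4 members this share is not read as a property of the set. mir-138-1 differed by 0.18 ± 0.09 (adjusted p = 0.0856) and mir-153 by 0.13 ± 0.13 (adjusted p = 0.431), and neither passed. Whether mir-138-1 passed depended on single libraries and on the method. The difference was 0.21 (edgeR adjusted p = 0.0252, 42.4% called) without Q20 10-month female replicate 1. Without male replicate 3 of the 6-month Q50 wild-type littermates it was 0.20 (adjusted p = 0.0482, 41.4% called). mir-138-1 also passed with all 8 libraries of low connectivity left out (0.21, 40.7% called). With all libraries kept it passed with limma on FPKM (0.22, 45.8% called) and with total counts alone (0.25, 44.1% called). The sum of both mir-138 hairpins differed by 0.40 ± 0.08 (adjusted p = 0.000148), beside a median of 0.02 over all hairpins.

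The separation of mir-137 by age was nearly complete. Its controls had a lowest, median and highest of 284, 328 and 372 CPM at 6 months and 247, 446 and 593 at 10 months. Of the 24 older controls, 21 were above every younger one, and the 2 below every younger one were Q20 male replicate 3 and Q20 female replicate 1. mir-138-2 had 11265, 16103 and 28678 CPM at 6 months and 10501, 23479 and 28392 at 10 months, where 22 of 24 older controls were above the younger median and none above every younger control. The ages overlapped for mir-138-2 up to the 6-month library at 28678 CPM. Genotype by genotype, in an analysis chosen after the difference in controls was seen, mir-137 passed in 5 of 6 groups (exact two-sided permutation within sex, n = 8 per age, adjusted over 24 tests). The differences were from 0.45 in Q92 (adjusted p = 0.0112) to 0.58 in the Q20 wild-type littermates (adjusted p = 0.00245), and in Q20, which did not pass, 0.21 (adjusted p = 0.191). In Q140 all 8 older mice were above all 8 younger ones.

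mir-138-2 passed in the Q20 wild-type littermates, Q50 and Q140, with 0.55, 0.56 and 0.58, and its other 3 differences were 0.33 to 0.39. mir-138-1 was between 0.07 and 0.31 and mir-153 between -0.22 and 0.53, and neither passed in any genotype. With 8 mice per age the smallest exact p this design allows is 0.000408. A linear change of the age effect with CAG length was not called for any member (interaction of CAG length and age, smallest edgeR adjusted p 0.951). In that test 2.11% of hairpins were called. Whether the age effect differs between genotypes in another way, as between Q20 and its wild-type littermates, was not tested. Age and L number are partly confounded. The number that opens each library label falls in separate ranges for younger and older mice, so age is fully confounded with this series. Labels with the same L number and library code recur at both ages for different libraries. An L number therefore need not mean the same run at both ages. The values that follow cannot separate age from a difference in processing between the series. With the L number in the model mir-137 differed by 0.33 (edgeR adjusted p = 0.000143) and mir-138-2 by 0.42 (adjusted p = 0.00302). Within L 4 (13 older and 4 younger controls) the differences were 0.39 and 0.66. Within L 5 (5 and 16) they were 0.21 and 0.26. Within L 3, with 6 older controls and 1 younger, mir-137 differed by 0.48 and mir-138-2 by -0.04, so mir-138-2 was not higher there.

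**Figure D3:**
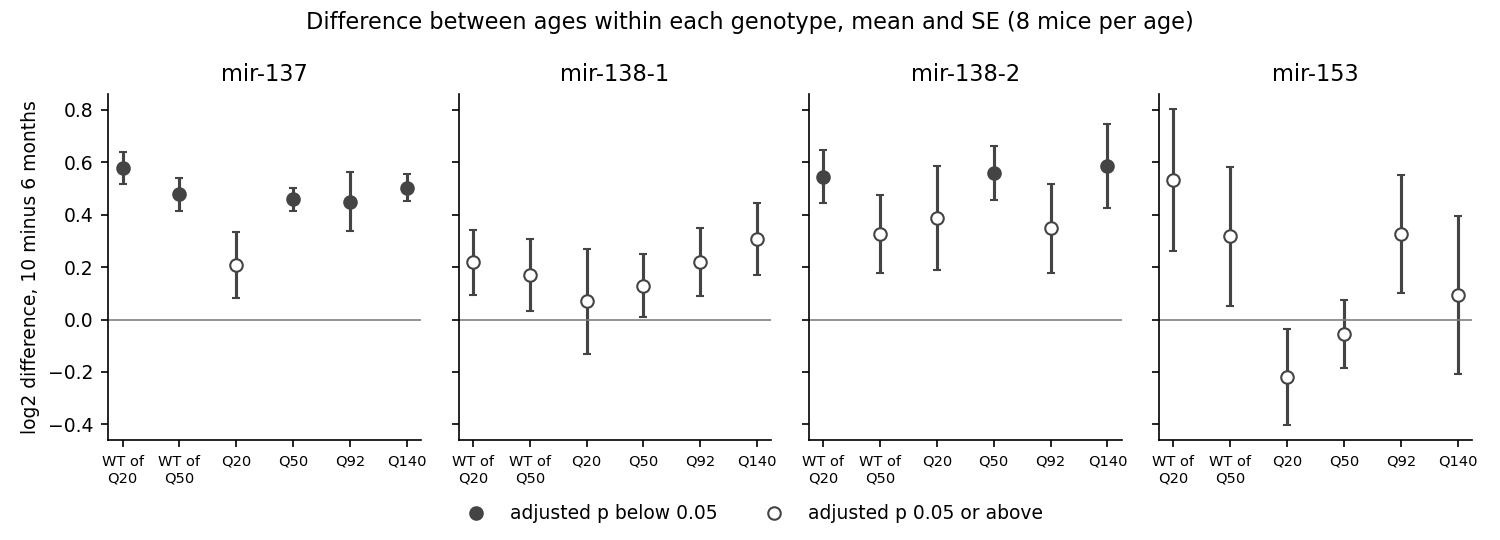
Difference in mean log2 CPM between 10 and 6 months within each genotype, with its SE over 8 mice per age; filled points have an adjusted p below 0.05 in the exact permutation test. mir-137 lies between 0.21 and 0.58 in all 6 genotypes, and mir-153 on both sides of 0.

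The ratio of the counts of mir-138-2 to mir-138-1 needs no scaling of the libraries. In the 24 controls of 6 months its lowest, median and highest values were 7.55, 10.6 and 13.3, and in those of 10 months 8.23, 12.5 and 16.6. Q140 mice of 6 months had 9.55, 11.3 and 13.2, and those of 10 months 12.6, 14 and 15.1. All 8 Q140 mice at 10 months were above the control median and all lay within the control range. The mean log2 ratio was higher in Q140 by 0.15 at 6 months (exact permutation within sex, two-sided, p = 0.112, n = 8 and 24) and by 0.16 at 10 months (exact p = 0.044). Adjusted over the 2 ages the p-values were 0.112 and 0.0881, so neither passed. The unadjusted 10-month p was 0.0185 to 0.0854 with single libraries left out. Within L 4 the 10-month difference was 0.12. In a test added after the age difference was seen, older controls had a ratio 1.2-fold that of younger controls (log2 0.27, permutation p = 0.0003, n = 24 per age). This age difference was 0.43 within L 4, 0.10 within L 5 and 0.07 within L 3, which has 1 younger control. These values too cannot separate age from the library series. The ratio holds the division of 5p reads, which is not stated, as well as the levels.

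**Figure D4:**
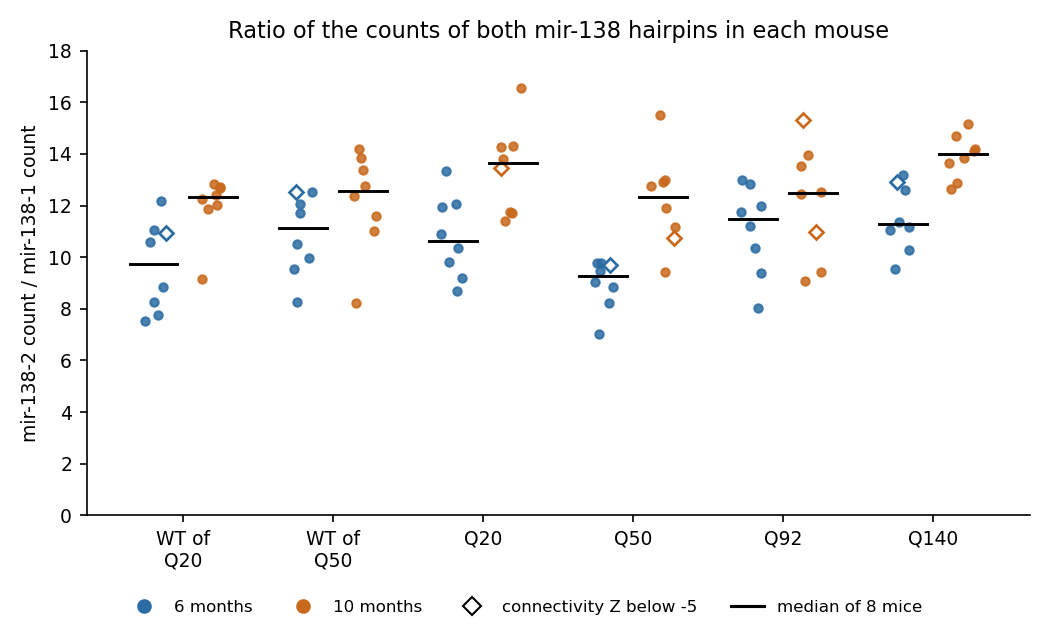
Ratio of the mir-138-2 count to the mir-138-1 count in each mouse by genotype and age, with medians of 8 mice and libraries of low connectivity as open diamonds. Q140 mice at 10 months sit between 12.6 and 15.1, within the control range of 8.23 to 16.6.

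No member was called by sex. In the 48 controls, females differed from males by 0.05 ± 0.05 in log2 for mir-137, -0.02 ± 0.09 for mir-138-1, -0.05 ± 0.09 for mir-138-2 and 0.18 ± 0.13 for mir-153. The smallest edgeR adjusted p was 0.599, and 0.211% of hairpins were called. A difference between sexes in the slope on CAG length was not called for any member (smallest adjusted p of 0.993 in edgeR), where 0% of hairpins were called, none by DESeq2 or limma, and 7 had an unadjusted p below 0.05.

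Among themselves the hairpins varied together in some pairs and inversely in others. Over the 48 mice of 6 months, mir-138-2 and mir-153 varied inversely (Pearson r = -0.76, Spearman rho = -0.61). The permutation p was 1e-05 for r, the smallest that 100000 permutations can give, and 2e-05 for rho, or 4e-05 and 0.00012 after adjustment over the 12 relations computed. Without the 2 mice farthest from the median of mir-138-2 r was -0.59. The relation did not hold within every L number: r was -0.85 over 27 mice of L 5, 0.67 over 10 of L 4 and -0.06 over 9 of L 6. The 2 farthest mice were both in L 5 and are kept in its r. At 10 months r was 0.33 and rho 0.06 (permutation p of 0.0214 and 0.689, adjusted 0.0256 and 0.795). Over all 48 mice the 10-month value rests on the 2 farthest from the median, since r was 0.07 without them. Within L numbers it was positive in each, 0.68 over 9 mice of L 3, 0.55 over 27 of L 4 and 0.75 over 12 of L 5. These values keep the 2 farthest mice, Q92 female replicate 1 in L 3 and Q20 female replicate 1 in L 5. They therefore do not show a relation apart from those mice. All values of r within L numbers, here and below, keep the farthest mice. The opposite signs of the ages were not tested against each other.

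mir-137 and mir-153 varied together at both ages. Their r was 0.44 and rho 0.34 at 6 months (permutation p of 0.00533 and 0.0175, adjusted 0.00914 and 0.0419), and 0.68 and 0.55 at 10 months (adjusted 4e-05 and 0.00028). Within L numbers r was 0.57 to 0.60 at 6 months and 0.53 to 0.75 at 10 months, and without the 2 farthest mice 0.40 and 0.50. mir-138-1 and mir-138-2, which share 5p reads, had an r of 0.61 and 0.80 at 6 and 10 months, a rho of 0.45 and 0.64, and adjusted permutation p-values for r of 6e-05 and 4e-05. Without the 2 farthest mice r was 0.54 and 0.67, and it was positive within each L number, from 0.32 in L 6 at 6 months to 0.93 in L 5 at 10 months.

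mir-138-1 and mir-153 also varied inversely at 6 months by r (-0.35, adjusted permutation p = 0.0213), with a rho of -0.12 (adjusted 0.619). Without the 2 farthest mice r was -0.26, and within L numbers it was 0.66 in L 4, -0.62 in L 5 and 0.16 in L 6. At 10 months r was 0.45 (adjusted 0.00394) and rho 0.25 (adjusted 0.163), with 0.25 without the 2 farthest mice and 0.47 to 0.71 within L numbers. mir-137 had no relation past the threshold with either mir-138 hairpin at 6 months, with r of -0.11 for mir-138-1 and -0.19 for mir-138-2 and rho of -0.16 and -0.05 (adjusted permutation p of 0.453 and 0.194 for r, 0.5 and 0.795 for rho). At 10 months r was 0.40 for mir-138-1 and 0.45 for mir-138-2 (adjusted 0.0116 and 0.0079), while rho was -0.01 and 0.05 (adjusted 0.959 and 0.795). Over all mice these values rest on the 2 farthest, without which r was -0.08 and -0.07. Within L numbers, with the 2 farthest mice kept, r was 0.31 to 0.76 for mir-138-1 and 0.66 to 0.85 for mir-138-2. Those mice were Q20 male replicate 3 in L 4 and Q20 female replicate 1 in L 5.

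**Figure D5:**
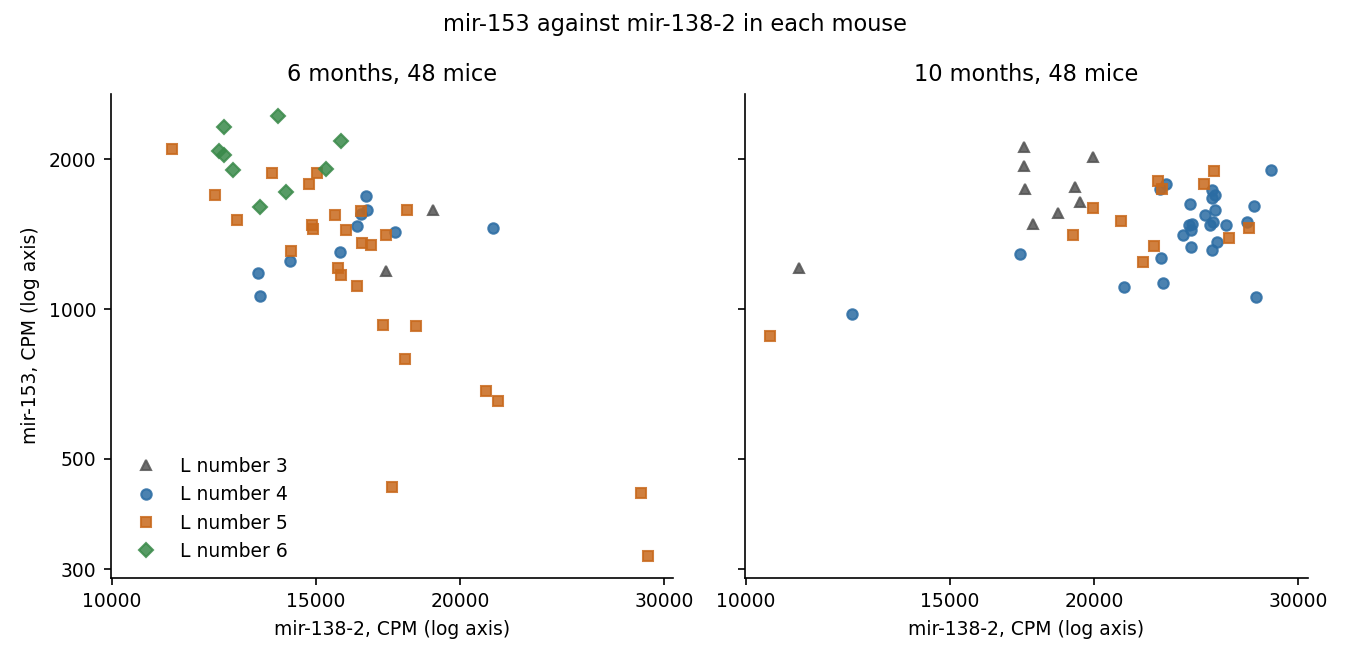
mir-153 against mir-138-2 in each mouse (CPM, log axes) at 6 months (left) and 10 months (right), with the L number of the library as the marker. At 6 months the points of L 5 descend to 319 CPM of mir-153 at 29038 CPM of mir-138-2, and at 10 months no library is below 884 CPM of mir-153.

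The hairpins most like each member were taken by Pearson r of log2 CPM over all 96 libraries, among 205 others with a mean of at least 100 CPM. They are named by identifier and described only, since the libraries share depth, age and L number. For mir-137 they were MI0000143 (r = 0.80), MI0000577 (0.80) and MI0000817 (0.77), where the median r over all 205 was 0.04. For mir-138-1 they were MI0000164 (r = 0.73), MI0000693 (0.68) and MI0005495 (0.65), the first of which is mir-138-2. For mir-138-2 they were MI0004196 (r = 0.74), MI0000722 (0.73) and MI0000145 (0.70), the second being mir-138-1. For mir-153 they were MI0001447 (r = 0.86), MI0000701 (0.85) and MI0000167 (0.83), the highest values of the 4.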

How the data were processed

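Small RNA of striatum from 96 mice was sequenced as strand-specific single-end reads. By the study's methods they were aligned to mm10 with STAR and counted with HTSeq (the submitters' processing notes also name CASAVA 1.8.2). The deposited values are estimated counts per miRBase hairpin and FPKM made by the authors from them. Of the counts above 0, 20% were not whole (tolerance 0.001), and how the stated counting gave such values is not given. Groups were taken from the sample labels, and 0 columns were left without a sample. The study replaced outlying counts and used a batch term that the labels do not define, and neither was done here.

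Counts were rounded and, after a filter with a minimum count of 10 that kept 474 of 1187 hairpins (1033 had a count, and those kept held 99.99% of counts), tested with edgeR 4.0.16 in R 4.3.3 (TMM, robust quasi-likelihood fit, sex as a covariate, 48 mice of an age sharing 1 estimate of the spread, Benjamini-Hochberg adjustment). CAG length entered as a number, with 7 repeats for wild type, and slopes are per 100 repeats. For edgeR estimates the SE was derived as the absolute log2 estimate over the square root of the F statistic. The 95% intervals were built from this SE and the t distribution. Ages were combined by Stouffer's sum of Z, with the mean of both ages as the estimate. The mir-138 ratio used a pseudocount of 0.5 and an exact permutation within sex. Permutations and correlations were run with scipy 1.17.1. Scripts were tested on simulated data.

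Alternatives were DESeq2 1.42.0, limma 3.58.1 on log2(FPKM + 1), scaling by total counts alone or by RLE size factors, a filter at a mean of 10 CPM or none, the L number as a factor, the replicate number as a block, Q20 or wild-type mice alone as controls, Q140 mice left out, libraries with a connectivity Z below -5 left out, both mir-138 hairpins summed, a ratio pseudocount of 1 and each library left out in turn. The tests of age within each genotype, of the ratio by age and without L 6 were added after seeing the data. The 4 members are named in every comparison, and beside each the 3 hairpins most like it over 96 libraries. The members and lists were chosen with earlier results of these data known. Lists of other neuronal microRNAs and of cell type markers could not be matched to identifiers and were not used. Labels do not say whether mice of a group share a litter, and p-values measure the spread between mice as sampled.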

Additional observations from a re-analysis of the deposited data

Results flagged for a closer look

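In 60 groups of 8 mice, 8 values stood apart from the other 7 by Dixon's test, where chance gives about 1 in 20 groups, or about 3. At 6 months the Q140 male replicate 1 had 2249.9 CPM of mir-138-1 against 1017 to 1406 in the other Q140 mice, and 29038 CPM of mir-138-2 against 12511 to 17272. The male replicate 3 of the 6-month Q50 wild-type littermates had 2286 CPM of mir-138-1 against 1247 to 1737, and 28678 CPM of mir-138-2 against 13743 to 18939. The Q92 female replicate 1 at 10 months had 1010.5 CPM of mir-138-1 against 1627 to 2045. These 3 libraries were also among those of low connectivity. The other values that stood apart were mir-137 at 531 CPM in the Q92 male replicate 1 at 6 months (274 to 342 in the others) and, in the female replicate 2 of the 10-month Q20 wild-type littermates, mir-138-1 at 2717 CPM (1547 to 2058) and a mir-138-2 to mir-138-1 ratio of 9.15 (11.9 to 12.8). No difference between ages or sexes in the slope of a member was called.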

How the results depend on the processing

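Values are log2 differences, or log2 per 100 repeats for slopes. The calls of mir-137 and mir-138-2 by age held under every alternative run and every library left out. None of these alternatives separates age from the library series. Under the alternatives 528 values were labelled unchanged, 43 changed sign, 12 passed the threshold and 1 moved. The unchanged values include counts of members called, used for Q50, Q92, Q140 against Q92 and the slope differences. Such counts have no direction, and signs in those comparisons were not followed. The value that moved was a count of this kind. The other unchanged values kept direction and side of the threshold. The smallest count of a member was 1219, and the part of counting error in the spread between mice was not computed. Normalization by RLE size factors, a filter of at least 10 CPM, no filter and a ratio pseudocount of 1 changed no call of a member, and no sign among those followed. The causes of the changes were not tested.

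With wild-type mice alone as controls, mir-137 had slopes of -0.042 at 10 months and -0.018 combined, and Q140 differences of -0.0031, -0.046 and -0.025 at 6 months, 10 months and combined. There mir-138-1 passed combined (slope -0.18, Q140 -0.24), mir-138-2 was -0.024 and -0.031 combined, and mir-153 passed at 10 months (slope -0.20, Q140 -0.32) and was 0.0083 and 0.054 at 6 months. With Q20 mice alone, mir-137 passed in Q140 at 10 months (0.30), mir-138-1 was 0.023 (slope, 10 months), 0.12 (Q140, 10 months) and 0.041 (combined), and mir-138-2 0.072 (slope) and 0.084 (Q140) at 6 months.

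Without the 8 libraries of low connectivity, mir-138-1 passed by age (0.21), in the combined slope (-0.14) and in Q140 at 6 months (-0.30) and combined (-0.21), and 1 member, mir-138-1, rather than 0 was called in Q140 against Q92 combined. Signs changed for the sex difference of mir-138-1 (0.031) and mir-138-2 (0.029), the combined slope and Q140 difference of mir-138-2 (-0.018 and -0.048), mir-153 in Q140 at 6 months (0.015) and mir-153 in Q20 against littermates combined (-0.021). With the L number as a factor, mir-137 was -0.0032 (slope) and -0.027 (Q140) at 6 months. mir-138-2 then had slopes of 0.020, -0.039 and -0.0096 and Q140 differences of 0.015, -0.046 and -0.016 at 6 months, 10 months and combined. Without Q140 mice the slope of mir-138-2 was -0.0089 at 10 months and -0.0048 combined, and that of mir-153 0.037, 0.026 and 0.032.

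With limma on FPKM, mir-138-1 passed by age (0.22), mir-137 was -0.026 (slope) and -0.053 (Q140) at 6 months, and mir-138-2 -0.019 and -0.016 combined. With total counts alone mir-138-1 passed by age (0.25) and in Q140 combined (-0.19), mir-137 was -0.017 and -0.047, and mir-138-2 -0.017 and -0.019, for the same quantities. DESeq2 gave -0.0027 for mir-137 in Q140 at 6 months, and the summed mir-138 hairpins a combined slope of -0.00032. The count of all hairpins called moved by over 1.5 times in places: from 37 to 57 (slope) and to 74 (Q140) at 6 months without the low-connectivity libraries, to 20 (Q140, 6 months) with Q20 controls, to 19 (slope, 6 months) with no filter, and by age from 44.1% to 29.1% of hairpins with the L number as a factor. Without Q140 mice 0 were called by slope in place of 37, 74 and 103 at 6 months, 10 months and combined.

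In Q140 against Q92 the count went from 11 to between 1 and 43 at 6 months, from 23 to between 13 and 35 at 10 months and from 44 to 75 combined. The combined count for Q20 against littermates went from 7 to between 2 and 16, that for the slope by age from 10 to between 2 and 21, and that for Q92 at 10 months from 0 to at most 17. In both ages combined Q50 and Q92 went from 0 to at most 6 and 7, Q50 at 6 months from 0 to 1, and sex from 1 to between 0 and 2.

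With 1 library left out at a time the ranges were -0.017 to 0.041 for the 6-month slope of mir-137, -0.014 to 0.048 for its 6-month Q140 difference, 0.12 to 0.21 for mir-138-1 by age, -0.21 to -0.12 for its 6-month slope, -0.14 to -0.099 for its combined slope, -0.054 to 0.0099 for its sex difference, -0.31 to -0.15 for its 6-month Q140 difference, -0.21 to -0.12 for its combined Q140 difference, -0.11 to 0.023 for the 6-month slope of mir-138-2, -0.037 to 0.029 for its combined slope, -0.20 to 0.014 for its 6-month Q140 difference, -0.057 to 0.050 for its combined Q140 difference. They were -0.098 to 0.024 for mir-138-2 in Q20 against littermates at 6 months, -0.11 to 0.055 for the 6-month slope of mir-153, -0.17 to 0.11 for its 6-month Q140 difference, -0.26 to -0.19 for its 10-month Q140 difference, -0.045 to 0.096 for its combined Q20 difference and 0.14 to 0.18 for the 10-month ratio in Q140. Of these, mir-138-1 passed the threshold by age without Q20 10-month female replicate 1 or without male replicate 3 of the 6-month Q50 wild-type littermates, its other 4 genotype values without Q140 6-month male replicate 1, and mir-153 in Q140 at 10 months without Q20 10-month female replicate 1. The ratio had an exact p above 0.05 in 14 of 32 fits.

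Replicate numbers recur across groups but do not pair the mice: libraries of the same number and age had a mean correlation of deviations of -0.0499 at 6 months and -0.00842 at 10 months. The replicate block changed no call of a member, with mir-137 by age at 0.43 (edgeR adjusted p = 4.12e-08), and took the count of hairpins called in Q50 at 10 months from 1 to 0.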
